A study of Homo sapiens with 2 samples.

Results

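KMT2D peaks at the ends of chromosomes were examined in OCI-LY7, a diffuse large B-cell lymphoma line of the germinal centre B-cell type, whose genotype is labelled wt. The study made 1 chromatin immunoprecipitation library with an antibody against the N-terminus of human KMT2D, from cells fixed in formaldehyde, and 1 input library from the same line without antibody. The deposited list gives the peaks of the KMT2D library on the hg19 build, and no values of the input library were used here. The line is 1 tumour culture, so nothing below speaks to other lymphomas or to normal B cells. A peak was taken as subtelomeric when its highest point lay below 3 Mb on a chromosome, or within 3 Mb of the end of the last listed peak. This was applied to 14 chromosomes, namely 1 to 3, 5 to 12, 14, 15 and 20. On chromosomes 14 and 15, whose short arms hold mostly repeats, only the long-arm end was taken. The rule gave 26 ends, 12 on short arms and 14 on long arms, and 1309 peaks of the 17299 on these chromosomes and of the 24824 in the whole list. The other 15990 peaks of the same chromosomes served for comparison. Long-arm windows start at a peak by construction, whereas short-arm windows start at base 0.

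KMT2D, also called MLL4, is the catalytic subunit of a large complex that places monomethyl marks on lysine 4 of histone H3 at enhancers, where it works together with the demethylase UTX. Its gene is among the most often inactivated in follicular and diffuse large B-cell lymphoma. The outermost DNA of a human chromosome consists of telomere repeats followed by duplicated blocks shared between ends, and behind them lies unique sequence. At many ends this sequence is rich in genes and in G and C bases, while other ends hold olfactory receptor families or a few very long neuronal genes. RefSeq's gene table for GRCh38 was used for the names of genes near each end only, and no peak was placed relative to a gene. Genes named for an end are among its 90 outermost protein-coding entries in that table, which does not show that they lie within 3 Mb, and at short-arm ends the table also mixes in entries that seem to belong to other scaffolds. Near the 6p end it lists DUSP22, a phosphatase gene, and IRF4, a transcription factor of germinal centre exit and plasma cells. The 3p end holds CHL1, CNTN6 and CNTN4, which encode neuronal adhesion molecules. The 8p end holds DLGAP2, a synaptic scaffold gene, and CSMD1, a very long gene. The 11q end holds the neuronal adhesion genes NTM and OPCML. Among the 30 outermost protein-coding genes of each long arm, 25 have olfactory receptor symbols at 1q, 4 at 5q and 2 at 15q, and 0 do at the 11 other long-arm ends, full or sparse. The 9q end includes NOTCH1, a receptor gene mutated in several lymphoid cancers, and TRAF2, a signalling adaptor of TNF receptors. It also includes CACNA1B, a neuronal calcium channel gene. Named genes are examples, and neuronal or lymphoid genes were not counted at full and sparse ends. The 7p end includes LFNG, which modifies Notch receptors. The 1p end includes the TNF receptor family genes TNFRSF14, TNFRSF4 and TNFRSF18, the 5p end TERT, the catalytic subunit of telomerase, and the 2q end PDCD1, an inhibitory receptor gene. On 14q the immunoglobulin heavy chain constant genes, IGHM among them, lie nearer the end than MTA1.

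Subtelomeric KMT2D peaks were denser than the other peaks of their chromosomes. The 26 windows held 16.8 peaks per Mb (exact Poisson 95% interval 15.9 to 17.7), and the rest held 7.83 peaks per Mb (7.71 to 7.95). The ratio was 2.14 (exact conditional 95% interval 2.02 to 2.27). The windows made up 3.68% of the spans examined and held 7.57% of the peaks. With each end set against the rest of its own chromosome, 1309 peaks stood against 622 expected, a ratio of 2.104 (1.99 to 2.22). Counted in bases covered by peaks, 1.14% of the windows and 0.554% of the rest were covered. With 1 ChIP library there was no replicate spread and no test. All intervals cover counting over peaks, which are not independent of each other, and the depth behind the list is unknown.

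The ratio was above 1 on each of the 14 chromosomes and varied between them. It was highest on chromosome 8, at 3.47 (2.84 to 4.20), followed by chromosome 5 at 3.27 (2.68 to 3.97) and chromosome 9 at 3.16 (2.62 to 3.78). It was lowest on chromosome 2, at 1.02 (0.732 to 1.37), and on chromosome 15, at 1.21 (0.828 to 1.72), and for these chromosomes the interval included 1. The median over the 14 chromosomes was 1.92.

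The pooled excess came from a part of the ends. Of the 26 ends, 12 had over 2 times the density of the rest of their own chromosome, which is 46.2%. Of all 698 windows of 3 Mb on these chromosomes, ends included, 15.8% passed a limit of 2 times. Of the 672 windows between the ends, 14.6% did. For a window between the ends the rest contained the window itself, so the limit was slightly harder to pass than for an end. These 12 ends were the long-arm ends 3q, 5q, 8q, 9q, 12q, 14q and 20q and the short-arm ends 1p, 5p, 6p, 7p and 11p, and together they held 1000 of the 1309 peaks (76.4%). A further 6 ends, 2q, 10p, 10q, 12p, 15q and 20p, lay between 1 and 2 times and held 225 peaks. The remaining 8 ends were below the rest of their chromosome and held 84 peaks (6.42%). They were 1q, 2p, 3p, 6q, 7q, 8p, 9p and 11q. At 5 of them, 1q, 2p, 3p, 8p and 11q, the whole interval of the ratio lay below 1. Lying below this mean did not make each of them sparse among windows. The 9p end held 14 peaks and 6q 19, against medians of 9.5 and 13 over the windows between the ends of their chromosomes. At 1q and 7q, 18 and 16 peaks stood against medians of 20 and 16.5. The 2p, 3p, 8p and 11q ends, with 5, 1, 7 and 4 peaks, were well under medians of 14, 15, 11 and 13.5. The share of other windows below 1 was not counted. The ends therefore did not share 1 level, and a mean over ends describes few of them.

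**Figure D1:**
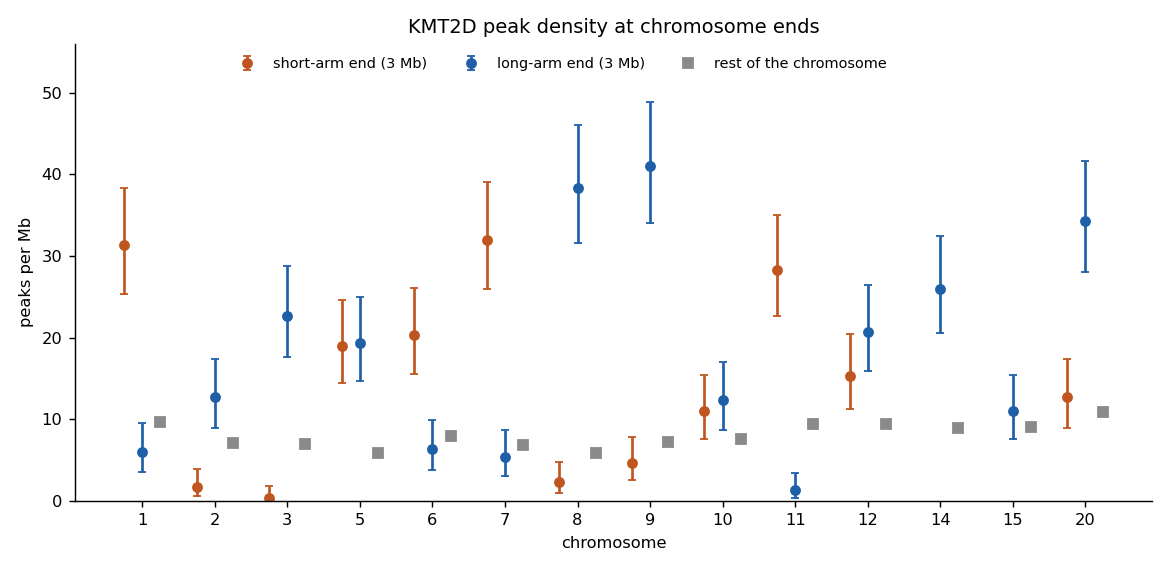
Peaks per Mb at the short-arm and long-arm end (3 Mb each) of 14 chromosomes and in the rest of each chromosome. Points are counts divided by length, and bars are exact Poisson 95% intervals. The highest value is 41.0 peaks per Mb at 9q and the lowest is 0.333 at 3p.

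The fullest ends were 9q and 8q. The 9q end held 123 peaks, or 41.0 per Mb (34.1 to 48.9), against 7.23 per Mb in the rest of chromosome 9, a ratio of 5.67 (4.66 to 6.84). Peaks there covered 2.93% of the window. The 8q end held 115 peaks, or 38.3 per Mb (31.7 to 46.01), against 5.87 per Mb in the rest of chromosome 8, and its ratio of 6.53 (5.33 to 7.95) was the highest of the 26. The intervals of the 9q and 8q densities overlapped, so their order is not settled. When only 1 Mb windows with a peak counted as span of the rest, the ratios were 3.57 at 9q and 4.75 at 8q. The 20q end followed with 103 peaks and a ratio of 3.17 (2.55 to 3.91). On chromosomes 8, 9 and 20, no 3 Mb window between the ends held more peaks than the long-arm end, out of 46, 44 and 18 windows.

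The fullest short-arm ends were 7p and 1p. The 7p end held 96 peaks, 4.72 times the density of the rest of chromosome 7 (3.79 to 5.82), and 1 of 50 windows between the ends held more. The 1p end held 94 peaks at a ratio of 3.23 (2.60 to 3.97), although its first peak lay only at 713820. Of them, 14 lay in the outermost 1 Mb, 55 in the next and 25 in the innermost. The 11p end held 85 peaks at a ratio of 3.01 (2.39 to 3.75). Chromosome 11 also had the fullest 3 Mb window of the 672, with 174 peaks, and 3 of its 42 windows held more than 11p.

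The emptiest ends were 3p, 11q, 2p and 8p. The 3p end held 1 peak, at 319828 to 320412, with a height of 38 in the authors' units and a width of 584 bp. That is 0.333 peaks per Mb (0.00844 to 1.86), against 6.997 per Mb in the rest of chromosome 3. The 11q end held 4 peaks, all in its outermost 1 Mb, the 2p end 5 and the 8p end 7. At 3p, 57 of 63 windows between the ends held more peaks, and at 2p 62 of 79 did. Windows of the rest also ran down to 0 peaks, as 42 of 672 (6.25%) did, whereas 0 of 26 ends were empty. The windows of the rest include unassembled sequence, and how many of the empty ones lie there was not counted. Long-arm ends cannot be empty by construction.

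**Figure D2:**
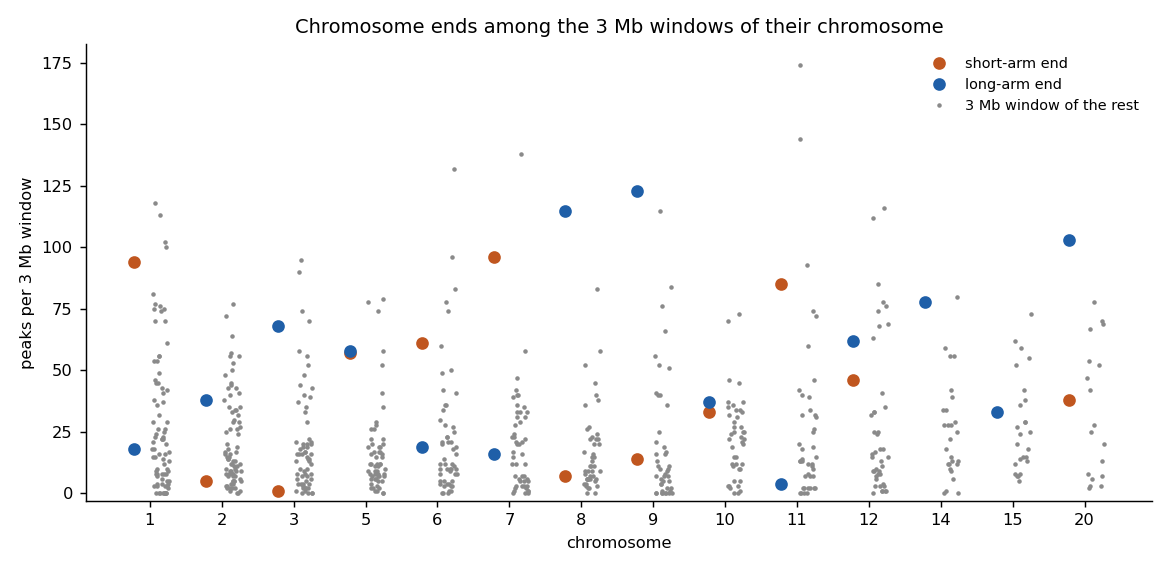
Number of peaks in each chromosome end and in each 3 Mb window between the ends, by chromosome. Ends are large points, windows of the rest small grey points spread sideways for visibility. The 26 ends ran from 1 to 123 peaks with a median of 42, and the 672 other windows from 0 to 174 with a median of 15.

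Ends of the same chromosome often differed. Of the 12 chromosomes with both ends, 8 had 1 end above and 1 end below the density of the rest, and 4 (chromosomes 5, 10, 12 and 20) had both above. The counts of long-arm and short-arm end differed over 3 times on 8 chromosomes. Windows between the ends varied widely as well, with a median of 15 peaks and a maximum of 174. How often a pair of those windows on a chromosome differs as much was not counted, so these differences are not shown to be particular to ends. Chromosome 3 had 68 peaks at 3q and 1 at 3p. Chromosome 8 had 115 at 8q and 7 at 8p, and chromosome 9 had 123 at 9q and 14 at 9p. The order was the other way round on chromosome 11, with 4 at 11q and 85 at 11p, on chromosome 7, with 16 at 7q and 96 at 7p, and on chromosome 1, with 18 at 1q and 94 at 1p. Chromosome 5 was nearly even, with 58 at 5q and 57 at 5p, and so was chromosome 10, with 37 at 10q and 33 at 10p. The long-arm end was the fuller one on 8 of 12 chromosomes. Over these 12 chromosomes the long-arm ends held 661 peaks and the short-arm ends 537, a ratio of 1.23 (1.097 to 1.38). The arms were not measured alike here, since long-arm windows start at a peak and short-arm windows at the chromosome start. When short-arm windows also started at their outermost peak, the ratio was 1.144 (1.021 to 1.281). Single chromosomes moved the ratio of 1.23 in both directions. It was 1.03 without chromosome 8 (0.913 to 1.16) and 1.03 without chromosome 9 (0.910 to 1.16), but 1.45 without chromosome 1 (1.28 to 1.64), 1.46 without chromosome 7 (1.29 to 1.66) and 1.45 without chromosome 11 (1.29 to 1.64). With windows of 1 Mb it was 1.56 (1.302 to 1.87) and with windows of 5 Mb 1.46 (1.33 to 1.61). Without chromosome 3 or 20 the interval included 1, at 1.106 (0.983 to 1.25) and 1.12 (0.989 to 1.26), and over all autosomes the ratio was 1.01 (0.929 to 1.104).

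Pooled over ends, density was highest nearest the end. Over the 26 ends, the outermost 1 Mb held 21.7 peaks per Mb (19.9 to 23.5), the next 17.9 (16.3 to 19.6) and the one from 2 to 3 Mb 10.8 (9.55 to 12.1). The bin just beyond the limit, from 3 to 4 Mb, held 10.7 (9.51 to 12.1), so there was no step at 3 Mb. Single ends did not all follow this order. From the outermost bin inward, 9q held 72, 42 and 9 peaks, but 1p held 14, 55 and 25. The decline was clearer on long arms, with 25.9 peaks per Mb in the outermost 1 Mb and 10.1 from 2 to 3 Mb, than on short arms, with 16.7 and 11.5. On short arms the bin from 1 to 2 Mb held 16.6 per Mb, about as many as the outermost, although the median per end was 9 peaks against 15. The difference between arms in this decline was not tested. The arms also have unlike starting points, since long-arm distances count from the last listed peak and short-arm distances from the chromosome start. The outermost short-arm bin thus includes the stretch before the outermost peak, with a median of 173 kb. How much of the difference between arms comes from this cannot be read from these bins. Further in, the density did not fall steadily. The lowest bin up to 12 Mb was 7 to 8 Mb with 8.12 peaks per Mb (7.06 to 9.29), and the bin from 11 to 12 Mb held 15.5 (13.99 to 17.1). In a comparison chosen after seeing the data, the windows held 1.45 times (1.36 to 1.55) the density of the 9 Mb next to them, against 2.14 times that of the whole rest. The peaks nearest to the limit on its inner side were at 6p and 12p, both with a height of 44, and the nearest beyond it were at 15q, with a height of 21, and 5q, with a height of 23.

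**Figure D3:**
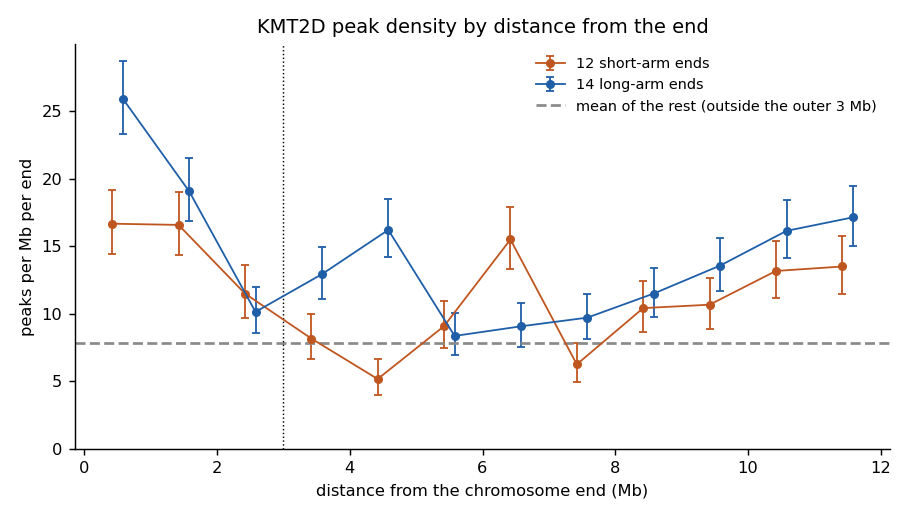
Peaks per Mb per end in bins of 1 Mb by distance from the chromosome end, for 12 short-arm and 14 long-arm ends. Bars are exact Poisson 95% intervals, the dashed line is the 7.83 peaks per Mb of the rest, and the dotted line marks 3 Mb. Long-arm ends start at 25.9 peaks per Mb and short-arm ends at 16.7. Long-arm distances count from the last listed peak, and short-arm distances from the chromosome start.

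Within the windows the peaks were bunched. In blocks of 500 kb, 28 of 156 blocks held over 15 peaks each and together 660 peaks (50.4%), and 28 blocks were empty. Blocks of the rest were not counted, so these counts do not show that peaks at the ends were more bunched than elsewhere. The fullest block lay at 9q from 0.5 to 1 Mb of the last peak, with 42 peaks and a tallest one of 162. At 5q, the outermost block held 31 of the 58 peaks of that end. The 6p end had 28 peaks in its outermost block and 26 between 2.5 and 3 Mb, with 3 from 1 to 2 Mb and a gap of 1028 kb between neighbouring peaks. At 6q, 18 of 19 peaks lay in the outermost 1 Mb, followed by a gap of 2001 kb. At 7p, 14 peaks lay in the outermost 1 Mb and 41 in each of the others. Short-arm peaks began between 11.3 and 714 kb from base 0, with a median of 173 kb. The outermost of all was at 9p, at 11276 to 11425, with a width of 149 bp and a height of 24. Sequence that near an end is partly shared between chromosomes or unassembled, and how reads that map to several places were treated is not given in the sources used here.

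**Figure D4:**
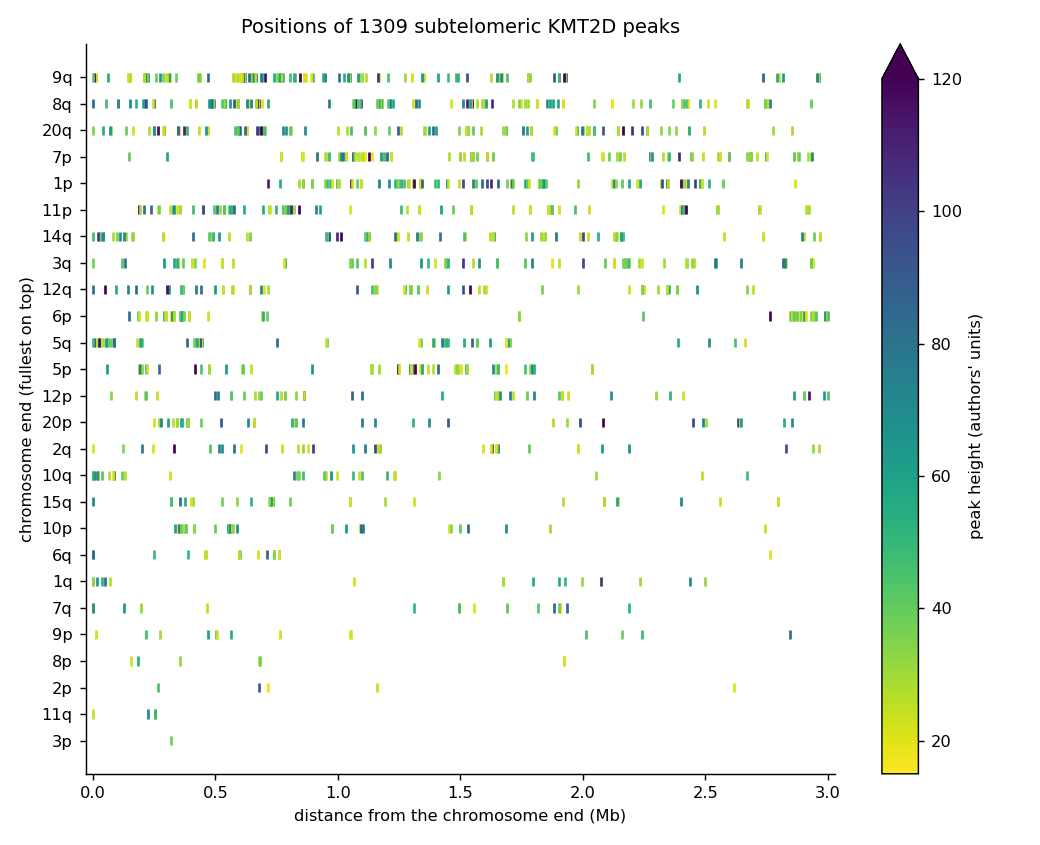
Position of each of the 1309 subtelomeric peaks by distance from its chromosome end, with 1 line of ticks per end, the fullest on top. Colour gives peak height in the authors' units, and heights above 120 share the darkest colour. Peaks fill the 9q, 8q and 20q lines, while 3p has 1 tick and 11q has 4.

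Subtelomeric peaks were about as tall as the others. Height is a whole number that the authors gave for each peak, with no stated scale. The median was 37 (95% interval of the median 35 to 39; interquartile range 26 to 58) at the ends and 38 (38 to 39; 26 to 59) in the rest. Heights ran from 17 to 200 at the ends and from 16 to 320 in the rest. Median widths were 584 bp (536 to 618 bp) at the ends and 624 bp (612 to 638 bp) in the rest. Of the subtelomeric peaks, 22.5% (exact binomial 95% interval 20.3 to 24.9%) were at most 200 bp wide, as were 21.1% of the others (20.4 to 21.7%). Peaks with a height of 100 or more made up 4.28% (3.25 to 5.52%) and 3.67% (3.39 to 3.97%). For heights, for these shares and for peaks over 2000 bp, at 1.99% (1.301 to 2.90%) against 2.41% (2.18 to 2.66%), the intervals overlapped. Those of the median width overlapped as well, by 6 bp.

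Within chromosomes the height went either way. The subtelomeric median was above that of the other peaks on 4 chromosomes and below it on 10, and on 0 of 14 were the intervals apart. The greatest gap was on chromosome 6, with 28.5 (24 to 36) at the ends and 38 (36 to 40) elsewhere, and there the intervals met at 36. On chromosome 7 the medians were 30.5 (29 to 38) at the ends and 38 (36 to 40) elsewhere. Chromosome 5 went the other way, with 41 (33 to 46) at the ends and 36 (34 to 39) elsewhere. Among single ends, 20p had the tallest median, 55 (41 to 69), against 42 in the rest of chromosome 20, and 6p stood low, at 29 (24 to 37) against 38. Ends with more peaks did not have clearly taller ones: over the 26 ends, the number of peaks correlated with the median height at a Spearman rho of 0.094 and a Pearson r of 0.12. This is a description of ends of 1 library, and the medians at 2p, 3p and 11q rest on at most 5 peaks. By distance, the median height was 39 (36 to 42) in the outermost 1 Mb, 36 (33 to 40) in the next and 33 (30 to 37) from 2 to 3 Mb, with neighbouring intervals overlapping, and 40 (34 to 45) just beyond the limit.

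**Figure D5:**
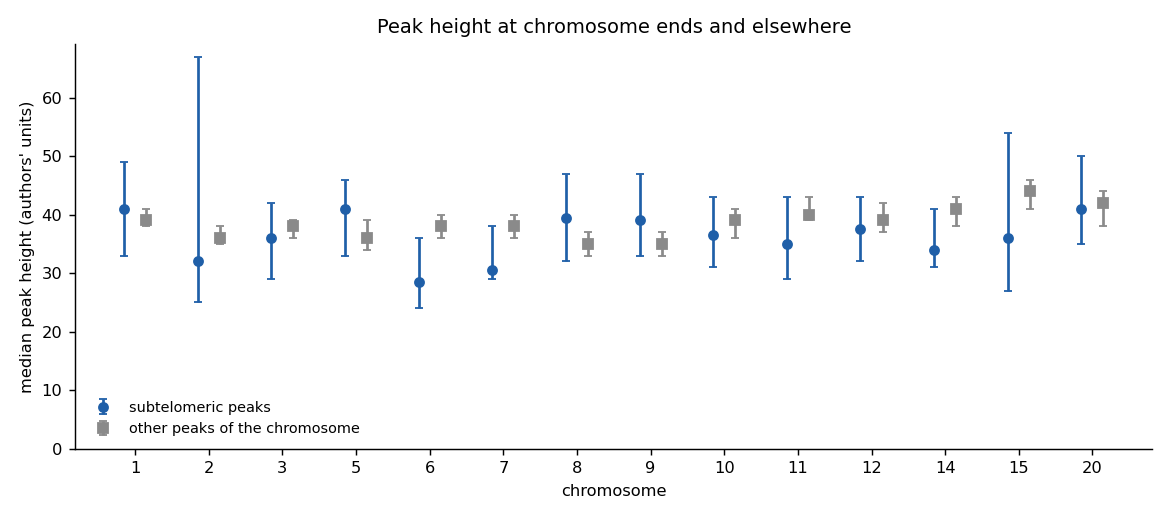
Median peak height in the authors' units, with 95% order-statistic intervals, for subtelomeric and other peaks of each of the 14 chromosomes. The medians run from 28.5 to 41 at the ends and from 35 to 44 elsewhere, and the intervals meet or overlap on every chromosome shown.

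The authors' significance value, a negative number that reads like the log10 of a p-value, was alike at equal height. At heights of 28 to 32, its median was -22.3 (interquartile range -23.9 to -20.9) over 163 subtelomeric peaks and -22.4 (-23.8 to -21.1) over 1892 others. For heights of 48 to 52 it was -35.9 over 62 subtelomeric peaks and -36.4 over 984 others. The lowest listed heights of a chromosome differed between ends and rest by at most 3 units, as on chromosome 14, with 22 at the end and 19 in the rest. Height and width had a Spearman correlation of 0.87 across subtelomeric peaks and also of 0.87 across the others.

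The 10 tallest subtelomeric peaks lay at 7 of the 26 ends. The tallest was at 9q, at chr9:138863389-138864536, with a height of 200 and a width of 1147 bp. It was the tallest peak of chromosome 9 and the sixth tallest of the 14 chromosomes, and 1.92 Mb separated it from the end of the last peak. The second, at 2q, at chr2:242823062-242824634, reached 187, and its nearest neighbour was 83.7 kb away. Both were listed at minus infinity for significance, as were 16 of the other 15990 peaks. The third, at 20q, at chr20:61425382-61426417, had a height of 172 and another peak 205 bp away. At 1p, a peak at chr1:1310217-1311237 reached 163. A height of 162 was reached at 9q (chr9:139940655-139941714), at 11p (chr11:2421030-2422358) and at 20q (chr20:62272800-62273923). The 14q end had a peak of height 158 at chr14:106267228-106268162. The last of the 10 were a peak of height 151 at chr9:140778666-140779698, only 6.56 kb from the end of the last peak on 9q, and one of height 147 at chr12:132166609-132167199 on 12q. The 9q end thus held 3 of the 10, and 20q held 2. Of the 10, 4 had no other peak within 12500 bp.

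The widest peak was at 14q, the end that carries the immunoglobulin heavy chain genes. It spanned 6670 bp at chr14:106317140-106323810 with a height of 93, against a maximum of 6305 bp among the other 15990 peaks. The 14q end as a whole held 78 peaks, 2.92 times the density of the rest of chromosome 14 (2.28 to 3.69), with a median height of 34 (31 to 41) against 41. Of the 27 windows of 3 Mb in the rest, 1 held more. The next widest subtelomeric peaks spanned 3858 bp at 11p and 3682 bp at 20p.

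Subtelomeric peaks lay closer together. The median distance to the nearest listed peak was 3.08 kb (2.53 to 3.83 kb) at the ends and 5.08 kb (4.73 to 5.47 kb) in the rest, and 4.35% and 9.09% of peaks had no neighbour within 100 kb. After joining peaks at most 12500 bp apart, 931 subtelomeric peaks (71.1%; 68.6 to 73.6%) and 61.6% (60.8 to 62.3%) of the others belonged to clusters. Clustering follows density in part, so windows with like numbers of peaks were set side by side. Among windows of 81 to 200 peaks, 78.1% (74.6 to 81.3%) of peaks were clustered at 6 ends and 78.3% (76.5 to 80%) in 20 windows of the rest. Among windows of 51 to 80 peaks the shares were 75.8% (71.2 to 79.98%) at 6 ends and 69.7% (68.3 to 71.1%) in 66 windows, and among windows of 21 to 50 peaks 53.8% (47.03 to 60.4%) at 6 ends and 59.8% (58.5 to 61.0%) in 181 windows. In the sparsest class, up to 20 peaks, they were 45.2% (34.3 to 56.5%) at 8 ends and 42.5% (40.9 to 44.2%) in 363 windows. The intervals of ends and rest were apart, narrowly, in the class of 51 to 80 peaks and overlapped in the other classes. Peaks of a cluster count as clustered together, so these intervals treat dependent peaks as separate. Whether ends and rest differ at like density was not tested.

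The difference in clustering varied between chromosomes. At the ends of chromosome 6, 86.3% of the peaks were clustered against 62.3% elsewhere on it, and at the ends of chromosome 2 only 27.9% were, against 60.1%. Lone subtelomeric peaks were taller than clustered ones, with medians of 46.5 (42 to 50) and 34 (32 to 35). In the rest these medians were 48 (47 to 48) and 33 (33 to 34).

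Large clusters at the ends were few in number, though not rarer per Mb than in the rest. Of the 68 clusters of 10 or more peaks on the 14 chromosomes, 4 were subtelomeric, and they held 56 peaks, or 4.28% (3.25 to 5.52%) of the subtelomeric peaks. The other 64 held 5.40% (5.05 to 5.76%) of the others. Per 100 Mb there were 5.13 such clusters at the ends and 3.14 in the rest. The values at the ends rest on 4 clusters, and the intervals of the shares treat peaks of a cluster as separate. The largest lay at 6p at chr6:2846663-2911517, with 17 peaks over 64.9 kb whose median height was 24 and whose tallest peak was 58. The second lay at 9q at chr9:140117727-140197190, with 16 peaks over 79.5 kb and a tallest peak of 90. The third, at 11p at chr11:776670-820120, had 12 peaks over 43.5 kb and a tallest peak of 110. The fourth, at 1p at chr1:1821253-1851224, had 11 peaks over 29.97 kb and filled 24.98% of its span, more than the 10.4% filled at 6p. The next 5 clusters had 9 peaks each. They lay at 10p (chr10:334592-379665), 5q (chr5:180633664-180674015), 9q (chr9:140008794-140045922 and chr9:140558473-140577575) and 15q (chr15:101457786-101475514). The last of the 10 was at 5q, at chr5:180586347-180619416, with 8 peaks, and the choice of this last one among clusters of 8 was by span. The 9q end thus held 3 of the 10 clusters with the most peaks and 5q held 2. The cluster at 15q filled 32.5% of its 17.7 kb, although 15q as a whole had only 1.21 times the density of the rest of its chromosome.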

How the data were processed

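The authors deposited 1 peak list without a header for the KMT2D library; its columns were read from their values. The submitters' processing notes name CASAVA 1.8.2 and the hg19 build; which aligner, peak caller and threshold were used, and how the input entered, is not given in the sources used here. Coordinates are as listed, and whether they count from 0 or 1 is not stated. The deposited signal column is the height. The deposited score column and a deposited significance score, finite from -199.991 to -15.0002 with 30 peaks at minus infinity, rose in size with height. The deposited percent column gives the relative position of the highest point and was not analysed.

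Density was peaks divided by window length, against the chromosome between its windows, unassembled sequence included. Intervals are at 95%: exact Poisson, exact conditional for ratios, exact binomial for shares, order-statistic for medians. Peaks at most 12500 bp apart were joined into clusters. Items named were all ends, the 10 tallest subtelomeric peaks and the 10 largest clusters by peak number; other items, the matched windows, the 500 kb blocks, the height bands, the cluster size of 10 and the limit of 2 times were picked with their values in view. The peaks examined and the genes named were chosen with earlier results of these data known. The sequence of peaks was not used here, since no hg19 genome was used. Functions were tested on simulated data. Versions were matplotlib 3.10.9, scipy 1.17.1, pandas 2.3.3, numpy 2.4.6 and Python 3.11.15.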

Additional observations from a re-analysis of the deposited data

How the results depend on the processing

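No paired analysis was possible because each group had 1 library and no test was run. Over all peaks and windows of 3 Mb the ratio of densities was 2.14. It was 2.71 with windows of 1 Mb, 2.515 with 2 Mb and 1.86 with 5 Mb. It was 1.64 when only 1 Mb windows with a peak counted as span of the rest, which shortens that span by construction while the ends kept their full length. Chosen after seeing the data were the next 9 Mb as comparison, which gave 1.45, all autosomes, which gave 2.507, and leaving out each chromosome in turn. The latter gave 2.07 to 2.22 for the density, 36 to 37 for the median height and 70.1 to 72.6% for the clustered share. The median height of subtelomeric peaks was 45 at a minimum height of 26, against 47 in the rest, and 41 after merging peaks under 500 bp apart, against 43; both steps raise it by construction. Their clustered share was 58.8% at that height, against 50.5% in the rest, 58.2% after merging, against 48.6%, 57.2% with joining at 5 kb, against 49.8%, and 81.2% at 25 kb, against 71.7%. For single ends, the next 9 Mb was pooled over both ends of a chromosome where both were taken. An end was thus not set against its own neighbouring sequence alone. Against this pooled sequence, the 2q end stood at 0.832 and the 12p end at 0.939, below 1 instead of above it. Of the 26 ends, 19 stayed on the same side of 1 in all 11 settings run for single ends, 14 of them above and 5 below. The other 7 changed side. The 6q and 15q ends kept their side in 8 of the 11 settings, 7q in 9, and 2q, 9p, 12p and 20p in 10. Over these settings 6q ran from 0.554 to 2.255 and 15q from 0.776 to 2.221. The settings include the pooled 9 Mb comparison, so the counts do not cover each end against its own neighbouring sequence. The cause of these shifts was not tested. Sequencing depth is unknown, so stretches with no listed peak may still hold KMT2D.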

Other observations

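Peaks of exactly 169 bp numbered 21 among the subtelomeric peaks, or 1.60% (exact binomial 95% interval 0.996 to 2.44%), and 163 among the other peaks of the same chromosomes, or 1.02% (0.870 to 1.19%). The intervals overlapped. This width was picked because it is the most frequent in the list.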
